A study of Mus musculus with 6 samples.

Results

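Expression of 10 genes that mark mature neutrophils was measured in liver metastases of mouse breast cancer cells with and without silencing of Zdhhc17: Csf3r, Cxcr2, Fpr1, Fpr2, Il1r2, Trem1, Clec4d, Clec4e, Hdc and Mxd1. They were chosen by symbol, and all 10 were found among the 24167 genes of the count table. Of these, 8 encode receptors at the cell surface, whereas Hdc encodes an enzyme and Mxd1 a transcription factor. The silenced metastases grew from 4T1, a triple-negative breast cancer line of the mouse, whose cells carried a lentiviral short hairpin RNA against Zdhhc17 (shZdhhc17). The controls grew from 4T1 cells with a scrambled hairpin (shSCR), made with the same puromycin-selected vector. Zdhhc17 encodes a palmitoyltransferase, an enzyme that adds palmitate to other proteins. In both groups 500000 cells were injected by hydrodynamic tail vein injection into female BALB/c mice aged 6 to 8 weeks, and metastases were dissected on day 10 (3 libraries of polyadenylated RNA per group). The hairpins were in the injected cells only, so neutrophils and other host cells in the dissected tissue carried none. The labels do not state whether each library is 1 animal, so a p-value here speaks of the spread among libraries, which may be technical. The series asks how loss of palmitoylation bears on killing of cancer cells by neutrophils.

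Neutrophils are made in the bone marrow under granulocyte colony-stimulating factor (G-CSF), whose receptor is encoded by Csf3r. While they mature they stop making primary granule proteins and gain the receptors by which they leave the marrow, follow chemoattractants and sense damaged tissue. Cxcr2 binds CXC chemokines, Fpr1 and Fpr2 bind formylated and other peptides, Il1r2 is a decoy that binds interleukin 1 without signalling, and Trem1, Clec4d and Clec4e couple to activating adaptor proteins. Hdc makes histamine from histidine, and Mxd1 pairs with Max in competition with Myc. 4T1 tumours are known for high G-CSF and many neutrophils in their hosts.

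The promoters of the genes are shown for the most alike pair in these libraries, Cxcr2 and Fpr1, and for the neighbouring lectin genes Clec4d and Clec4e, whose transcripts were also alike. Each runs from 250 bases before to 50 bases after the start of the gene, 5′ to 3′, from RefSeq on GRCm38.p6, another build than that of the count table. All 10 genes matched 1 promoter each. Capitals mark the core letters bound by PU.1 (GAGGAA) and by C/EBP factors (TTNNGNAA), regulators of the myeloid lineage, on either strand. In the windows printed the marked matches do not overlap each other. Cxcr2 lies at chr1:74153744-74154043, plus strand, Fpr1 at chr17:17883890-17884189, minus strand, Clec4d at chr6:123261857-123262156, plus strand, and Clec4e at chr6:123289822-123290121, minus strand.
Cxcr2: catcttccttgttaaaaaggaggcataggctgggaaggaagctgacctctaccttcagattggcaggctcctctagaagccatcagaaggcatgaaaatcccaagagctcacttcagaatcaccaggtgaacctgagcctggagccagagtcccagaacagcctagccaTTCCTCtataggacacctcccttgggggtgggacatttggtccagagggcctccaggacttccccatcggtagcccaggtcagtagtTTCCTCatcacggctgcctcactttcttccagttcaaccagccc
Fpr1: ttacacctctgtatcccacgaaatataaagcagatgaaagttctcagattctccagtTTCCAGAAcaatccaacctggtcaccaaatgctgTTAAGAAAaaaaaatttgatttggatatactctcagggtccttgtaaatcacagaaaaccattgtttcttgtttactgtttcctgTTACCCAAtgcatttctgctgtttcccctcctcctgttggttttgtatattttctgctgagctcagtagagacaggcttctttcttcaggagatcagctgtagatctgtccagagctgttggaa
Clec4d: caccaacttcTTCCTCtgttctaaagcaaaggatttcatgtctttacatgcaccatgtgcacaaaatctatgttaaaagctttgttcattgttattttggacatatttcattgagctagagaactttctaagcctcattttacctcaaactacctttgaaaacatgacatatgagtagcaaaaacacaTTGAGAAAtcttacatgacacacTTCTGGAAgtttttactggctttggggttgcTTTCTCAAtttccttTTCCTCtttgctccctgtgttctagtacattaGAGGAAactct
Clec4e: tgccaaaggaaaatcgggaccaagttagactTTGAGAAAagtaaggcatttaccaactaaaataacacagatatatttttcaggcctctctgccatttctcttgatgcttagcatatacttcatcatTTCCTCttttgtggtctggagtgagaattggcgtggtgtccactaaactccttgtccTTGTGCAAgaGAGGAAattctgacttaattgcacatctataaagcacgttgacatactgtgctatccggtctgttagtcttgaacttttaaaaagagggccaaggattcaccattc
The PU.1 letters stood in 6 of the 10 promoters (Csf3r, Cxcr2, Fpr2, Trem1, Clec4d and Clec4e) and in 28.3% of all 32851 promoters of that length. The C/EBP letters stood in 6 of the 10 (Fpr1, Fpr2, Trem1, Clec4d, Clec4e and Mxd1) and in 40.7% of all. Cxcr2 had 2 PU.1 matches and none of the C/EBP letters, Fpr1 had 3 C/EBP matches and none of the PU.1 letters, and Clec4d had 3 of each. The letters bound by STAT factors (TTCNNNGAA, either strand, which may overlap the others), which act below the G-CSF receptor, stood in Fpr2, Il1r2 and Trem1 and in 8.30% of all promoters. The E-box CACGTG, the site of Myc and Mxd1, reads the same on either strand; it stood in the window of Il1r2, at 2 places, and in 7.15% of all. These matches describe the windows and are not binding data. Several of the genes are neighbours: by the coding genes of the RefSeq table Fpr1 lies next to Fpr2 and Clec4d next to Clec4e, Cxcr2 lies next to Cxcr1, Il1r2 next to Il1r1 and Trem1 next to Trem3.

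Gene counts summed to between 15832837 and 18234406 in the shZdhhc17 libraries and to between 16129825 and 19186615 in the shSCR libraries. Zdhhc17 itself stood at 25.9, 27.8 and 26.0 CPM in the shZdhhc17 libraries and at 33.7, 32.4 and 34.2 CPM in the shSCR libraries (CPM is the count scaled to a library size of 1e+06 after TMM normalization). The groups did not overlap, and the log2 fold change was -0.33 ± 0.11 (SE; edgeR adjusted p = 0.383). One library stood apart on the first principal component: shSCR replicate 3 lay at 65.4, and the other 5 between -33.2 and 12.3. Hepatocyte markers took 2.87% of the counts in that library, 5.40% to 6.59% in the shZdhhc17 libraries and 4.81% to 5.55% in the other two shSCR libraries. On the second component shZdhhc17 replicate 1 lay at 46.8 and the others between -22.4 and 5.68.

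Neutrophil transcripts were present in each library. S100a9 (calprotectin) stood at 258, 159 and 315 CPM in the shZdhhc17 libraries and at 58.2, 123.4 and 28.1 CPM in the shSCR libraries. Ly6g, the surface antigen by which mouse neutrophils are defined, had 23, 23 and 48 counts in shZdhhc17 replicates 1, 2 and 3 and 3, 19 and 7 counts in the shSCR replicates. Its log2 fold change was 1.92 ± 0.63 (SE; edgeR adjusted p = 0.378). All 10 genes passed the filter on low counts. Their counts per library ran from 22 (Fpr1 in shSCR replicate 3) to 1202 (Csf3r in shSCR replicate 2).

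By edgeR's quasi-likelihood test 0 of the 10 genes passed an adjusted p under 0.05, beside 0% of all 15567 genes tested. DESeq2 and limma voom called 0 of the 10 as well. DESeq2 called 204 genes, 1.22% of the 16658 to which it gave an adjusted p. At an unadjusted p under 0.05 edgeR had 1 of the 10, Cxcr2, higher in shZdhhc17 metastases, beside 4.72% of all genes on that side, 6.71% on the other and 11.4% on either side. Of the 10 log2 fold changes 8 were positive, beside 50.3% of all genes tested. Their median was 0.38, and that of all genes tested 0.0017. Without shZdhhc17 replicate 1 the median of the 10 genes was 0.16. In the authors' deposited table, 204 of all 24167 genes (0.844%) had a q under 0.05. None of the 10 did, the smallest being 0.378 for Cxcr2. That table also comes from DESeq2 and gave the 10 the same log2 fold changes as DESeq2 here, so it is not a separate result. The groups did not overlap for 2 of the 10, Cxcr2 and Fpr1, both higher, beside 7.48% of all genes on that side, 9.62% on the other and 17.1% on either side. With libraries scaled by their totals alone, 0 of the 10 had groups that did not overlap.

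**Figure D1:**
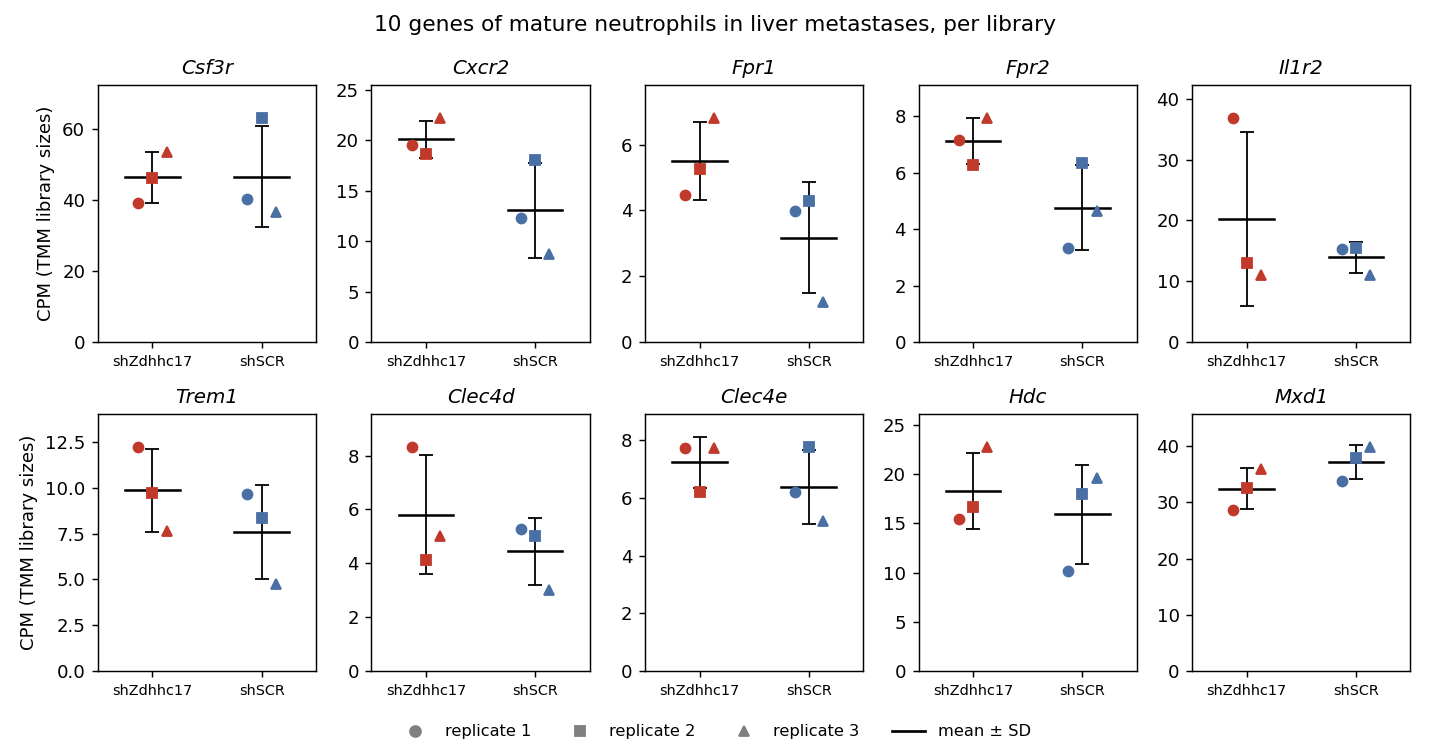
CPM on normalized library sizes (y axis, from 0) of each of the 10 genes in the 3 shZdhhc17 libraries (red, left) and the 3 shSCR libraries (blue, right), with the mean and SD of each group and a marker shape per replicate number. Only for Cxcr2 and Fpr1 do all red points lie above all blue ones, and Il1r2 has a single high point at 36.7 CPM.

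Among the chemotactic receptors, Cxcr2 (ENSMUSG00000026180.9) had 19.6, 18.6 and 22.2 CPM in shZdhhc17 replicates 1, 2 and 3, against 12.3, 18.1 and 8.76 CPM in shSCR replicates 1, 2 and 3. The shZdhhc17 libraries were alike, and the gap between the groups lay between shZdhhc17 replicate 2 and shSCR replicate 2. The mean of the shZdhhc17 libraries was 20.1 ± 1.83 CPM, against 13.1 ± 4.71 CPM in the controls (SD, n = 3 per group). The log2 fold change was 0.62 ± 0.26 (SE; 95% interval 0.023 to 1.22; edgeR adjusted p = 0.422). An exact two-sided permutation test gave p = 0.1, the smallest that 3 against 3 can give. Without shSCR replicate 3, the library with few hepatocyte transcripts, the log2 fold change was 0.40 (edgeR adjusted p = 0.704). With the mean of the hepatocyte markers as a covariate it was 0.49 (edgeR adjusted p = 0.560). In bulk tissue, more neutrophils and more receptor RNA per neutrophil cannot be told apart.

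Fpr1 (ENSMUSG00000045551.8) had 4.47, 5.26 and 6.79 CPM in shZdhhc17 replicates 1, 2 and 3, against 3.98, 4.29 and 1.23 CPM in shSCR replicates 1, 2 and 3. The groups did not overlap, but 2 of the 3 control values lay just below the lowest shZdhhc17 value. Its log2 fold change was 0.79 ± 0.44 (SE; 95% interval -0.24 to 1.83; edgeR adjusted p = 0.516), and 0.41 without shSCR replicate 3. Fpr2 (ENSMUSG00000052270.8) had 7.17, 6.27 and 7.91 CPM in shZdhhc17, against 3.32, 6.33 and 4.63 CPM in shSCR. Here shSCR replicate 2 stood level with shZdhhc17 replicate 2, so the groups overlapped by 1 library. The log2 fold change was 0.58 ± 0.27 (SE; 95% interval -0.052 to 1.21; edgeR adjusted p = 0.464). The low control library was not the same for both formyl peptide receptors: shSCR replicate 3 was lowest for Fpr1 and shSCR replicate 1 for Fpr2. The ratio of Fpr1 to Fpr2 counts within a library was 0.623, 0.838 and 0.858 in shZdhhc17 and 1.20, 0.678 and 0.265 in shSCR, so the controls held both the highest and the lowest ratio. The formyl peptide receptors come from a family of related genes, and how reads were shared among its members is not stated.

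Csf3r (ENSMUSG00000028859.15), the G-CSF receptor, had nearly equal means in the groups. It had 39.2, 46.3 and 53.5 CPM in shZdhhc17 replicates 1, 2 and 3, against 40.2, 62.9 and 36.6 CPM in shSCR replicates 1, 2 and 3. The highest and the lowest value were both in control metastases. The mean was 46.3 ± 7.15 CPM in shZdhhc17, against 46.5 ± 14.2 CPM in shSCR (SD, n = 3 per group). Its log2 fold change was -0.0076 ± 0.23 (SE; 95% interval -0.54 to 0.52; edgeR adjusted p = 0.994).

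Counts were also set against each other within a library, as 7 ratios chosen with the values of the genes known and given with no test. That of Cxcr2 to Csf3r did not overlap between the groups. The ratio was 0.499, 0.403 and 0.414 in shZdhhc17 replicates 1, 2 and 3, against 0.306, 0.288 and 0.240 in shSCR replicates 1, 2 and 3. It averaged 0.439 ± 0.0527 in shZdhhc17, against 0.278 ± 0.0344 in shSCR (SD, n = 3 per group). A ratio within a library does not depend on the scaling of libraries. Ratios to S100a8, the partner of S100a9, hold the value of S100a8 itself, which stood at 159.5, 97.3 and 202.7 CPM in shZdhhc17, against 22.7, 66.8 and 11.4 CPM in shSCR (log2 fold change 2.18 ± 0.62; edgeR adjusted p = 0.329). Csf3r was 0.246, 0.476 and 0.264 times S100a8 in shZdhhc17 and 1.77, 0.941 and 3.20 times S100a8 in shSCR. Cxcr2 was 0.123, 0.192 and 0.109 times S100a8 in shZdhhc17 and 0.542, 0.271 and 0.766 times S100a8 in shSCR. Counts were not divided by gene length in these ratios, so they compare libraries and not genes.

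**Figure D2:**
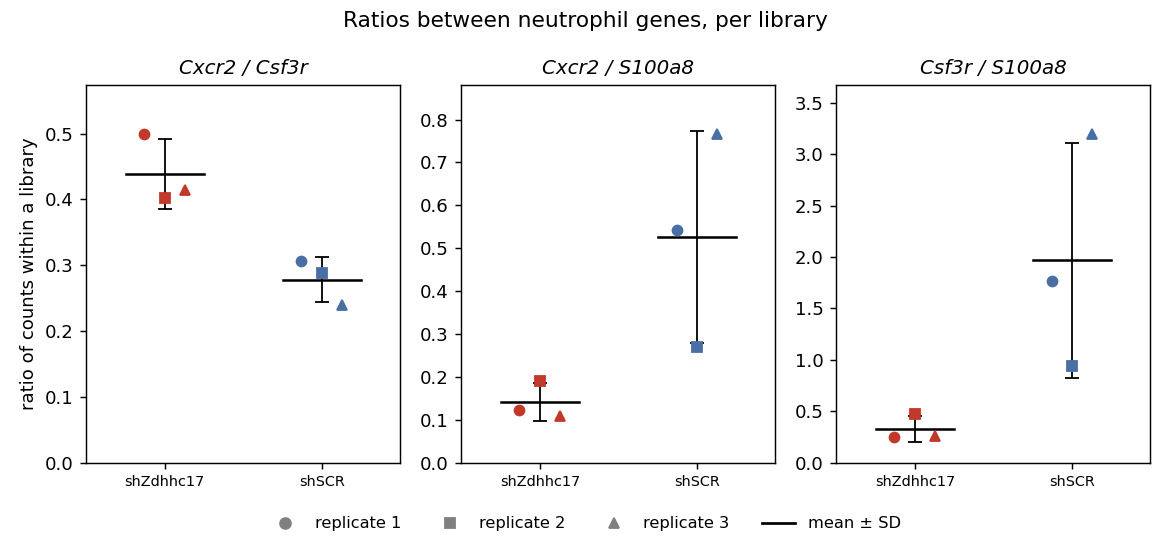
Ratio of the counts of 2 genes within each library (y axis, from 0) for Cxcr2 over Csf3r, Cxcr2 over S100a8 and Csf3r over S100a8, in shZdhhc17 (red, left) and shSCR (blue, right), with the mean and SD (n = 3 each). Red and blue points do not overlap in any panel. Red is above blue in the first panel and below it in the panels over S100a8. Of the 7 ratios compared, only those without overlap are shown, and all others overlapped.

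Il1r2, Trem1 and Clec4d, receptors that restrain or amplify inflammation, were all highest in 1 library. Il1r2 (ENSMUSG00000026073.14) had 36.7, 13.0 and 11.1 CPM in shZdhhc17 replicates 1, 2 and 3, against 15.3, 15.5 and 10.99 CPM in shSCR replicates 1, 2 and 3. Replicate 1 of shZdhhc17 was far above every other library, and the other 5 lay close together. The log2 fold change was 0.54 ± 0.45 (SE; 95% interval -0.51 to 1.59; edgeR adjusted p = 0.657) and without that library -0.21 (edgeR adjusted p = 0.689). Interleukin 1 receptor 1 (Il1r1), the signalling receptor, had 197, 153 and 170 CPM in shZdhhc17 and 136, 133 and 147 CPM in shSCR without overlap (log2 fold change 0.32 ± 0.14; edgeR adjusted p = 0.447).

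Trem1 (ENSMUSG00000042265.14), which amplifies inflammatory signals through the adaptor DAP12, was likewise highest in shZdhhc17 replicate 1. It had 12.2, 9.73 and 7.65 CPM in shZdhhc17, against 9.65, 8.37 and 4.74 CPM in shSCR (log2 fold change 0.38 ± 0.30, SE; edgeR adjusted p = 0.641). Clec4d (ENSMUSG00000030144.5), a C-type lectin for mycobacterial glycolipid, had 8.30, 4.12 and 5.01 CPM in shZdhhc17, against 5.29, 5.02 and 3.01 CPM in shSCR. Its log2 fold change was 0.39 ± 0.34 (SE; edgeR adjusted p = 0.677). Without shZdhhc17 replicate 1 it was 0.041, and that of Trem1 0.20. Without shSCR replicate 3 the values were 0.17 for Clec4d and 0.13 for Trem1. The groups overlapped for both genes. Clec4e (ENSMUSG00000030142.11; also called Mincle), which pairs with Clec4d in signalling through the Fc receptor gamma chain, also overlapped. It had 7.74, 6.21 and 7.72 CPM in shZdhhc17, against 6.21, 7.74 and 5.19 CPM in shSCR (log2 fold change 0.18 ± 0.22, SE; edgeR adjusted p = 0.777). The ratio of Clec4d to Clec4e was 1.07, 0.663 and 0.650 in shZdhhc17 and 0.851, 0.649 and 0.581 in shSCR, overlapping between the groups.

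**Figure D3:**
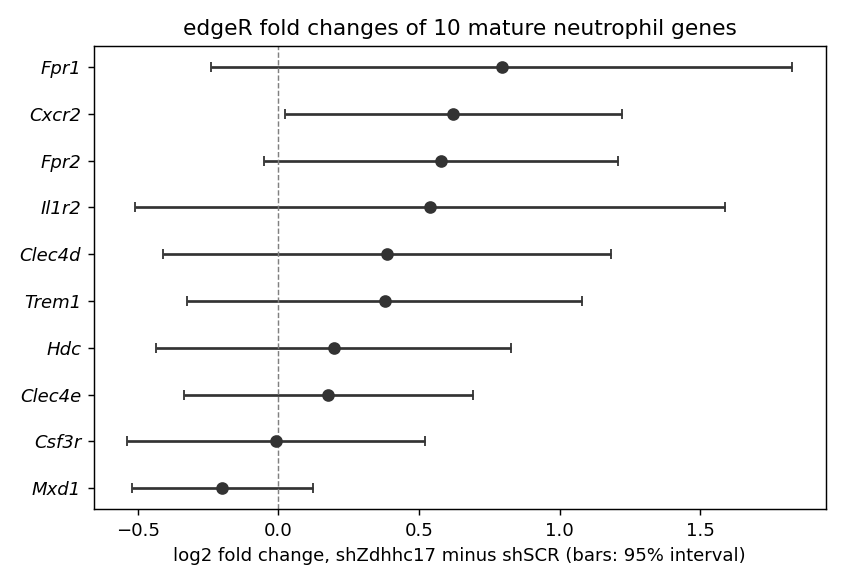
Log2 fold change, shZdhhc17 minus shSCR, of each of the 10 genes by edgeR (x axis), with its 95% interval (bars). All intervals but that of Cxcr2 hold 0, Fpr1 is highest at 0.79, Csf3r sits near 0 and Mxd1 is lowest at -0.20.

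The remaining genes are no receptors. Hdc (ENSMUSG00000027360.6), histidine decarboxylase, had 15.5, 16.6 and 22.7 CPM in shZdhhc17 replicates 1, 2 and 3, against 10.2, 17.99 and 19.6 CPM in shSCR replicates 1, 2 and 3 (log2 fold change 0.20 ± 0.27, SE; edgeR adjusted p = 0.798). The groups overlapped, and without shSCR replicate 1 the value was -0.040. Mast cells and basophils also make histamine. Of their markers, the mast cell carboxypeptidase gene Cpa3 stood at 0.537 to 1.01 CPM in shZdhhc17 and 0.436 to 1.12 CPM in shSCR, and the protease gene Mcpt4 at 0 to 0.198 CPM in shZdhhc17 and 0.327 to 0.614 CPM in shSCR. The summed level of the 10 mast cell and basophil genes was 15.5 to 24.5 CPM in shZdhhc17 and 18.2 to 26.6 CPM in shSCR, of which Kit alone held 9.25 to 15.8 CPM in shZdhhc17 and 13.6 to 18.9 CPM in shSCR. Mcpt8, a protease gene of basophils, had 1.38, 1.19 and 2.57 CPM in shZdhhc17, against 0.273, 0.889 and 0.837 CPM in shSCR. All shZdhhc17 libraries lay above all controls (log2 fold change 1.35 ± 0.51; edgeR adjusted p = 0.405), and Mcpt8 was the gene of this list with an unadjusted p under 0.05. Of the 10, 4 were tested, with 2 positive and 2 negative log2 fold changes. The part of these cells in the values of Hdc was not tested.

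Mxd1 (ENSMUSG00000001156.10), a repressor that is induced as myeloid cells stop dividing, was the gene with the most negative value. It had 28.7, 32.6 and 35.9 CPM in shZdhhc17, against 33.9, 38.0 and 39.8 CPM in shSCR, groups that overlapped between shZdhhc17 replicate 3 and shSCR replicate 1. The log2 fold change was -0.20 ± 0.14 (SE; 95% interval -0.52 to 0.12; edgeR adjusted p = 0.588). It was negative under every alternative tried, from -0.34 with library totals alone to -0.11 without shZdhhc17 replicate 1. The ratio of Mxd1 to Myc was 0.256, 0.419 and 0.499 in shZdhhc17 and 0.408, 0.366 and 0.443 in shSCR. Mxd1 is made by many cell types, and its part in neutrophils was not separated here.

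Set per length of the annotated exons (GENCODE vM21 on GRCm38), Csf3r was the most abundant of the 10 in both groups, at 12.8 ± 1.98 CPM per kilobase in shZdhhc17 and 12.9 ± 3.95 CPM per kilobase in shSCR (SD, n = 3 each). Il1r2 came next, at 10.6 ± 7.49 CPM per kilobase in shZdhhc17 and 7.31 ± 1.342 CPM per kilobase in shSCR. The least abundant was Clec4e, at 1.45 ± 0.176 CPM per kilobase in shZdhhc17 and 1.29 ± 0.258 CPM per kilobase in shSCR. In shZdhhc17 the order ran Csf3r, Il1r2, Cxcr2, Fpr2, Mxd1, Fpr1, Clec4d, Trem1, Hdc and Clec4e. For 7 of the 9 neighbouring pairs the ranges over libraries overlapped, all but Cxcr2 above Fpr2 and Hdc above Clec4e. In shSCR the order ran Csf3r, Il1r2, Mxd1, Cxcr2, Fpr2, Clec4d, Trem1, Hdc, Fpr1 and Clec4e, and 7 of 9 neighbouring ranges overlapped, all but Csf3r above Il1r2 and Il1r2 above Mxd1. Fpr1 stood at 4.16 ± 0.894 CPM per kilobase in shZdhhc17 and 2.39 ± 1.27 in shSCR, the sixth and the ninth place.

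Across the 6 libraries the 10 genes varied together only in part. Of their 45 pairs, 34 had a positive and 11 a negative Pearson correlation of log2(CPM + 1), with a median of 0.39 over 6 libraries. The share of positive pairs among other genes was not counted. Tissue makeup differed between libraries, with hepatocyte markers at 2.87% to 6.59% of the counts, and its part in these correlations was not tested. The most alike were Cxcr2 and Fpr1 (r = 0.92), then Il1r2 and Clec4d (0.88), Cxcr2 and Clec4e (0.87) and Trem1 and Clec4d (0.85). The neighbours Clec4d and Clec4e had 0.76, and the neighbours Fpr1 and Fpr2 had 0.54. The least alike were Trem1 and Mxd1 (-0.89), Il1r2 and Mxd1 (-0.80) and Clec4d and Mxd1 (-0.80). Of the 10 genes, 7 were lowest in shSCR replicate 3, 2 in shSCR replicate 1 and 1 in shZdhhc17 replicate 1. As for the highest value, 4 had it in shZdhhc17 replicate 3, 3 in shZdhhc17 replicate 1, 2 in shSCR replicate 2 and 1 in shSCR replicate 3.

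**Figure D4:**
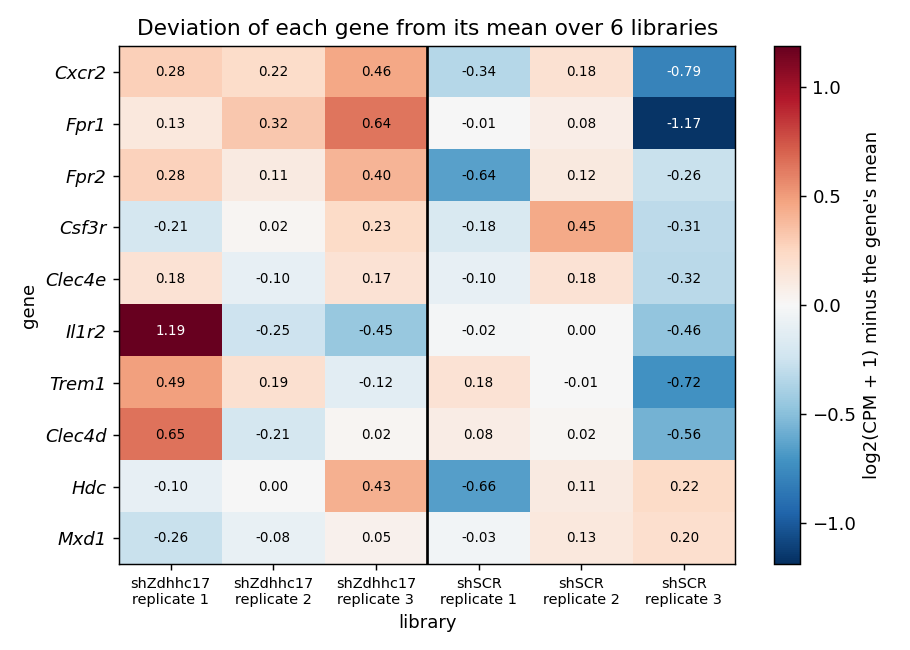
Log2(CPM + 1) of each of the 10 genes (rows) in each library (columns; shZdhhc17 left of the line, shSCR right) minus the gene's mean over the 6 libraries. Il1r2, Trem1 and Clec4d are reddest in shZdhhc17 replicate 1 (1.19, 0.49 and 0.65), Cxcr2 and Fpr1 in shZdhhc17 replicate 3 (0.46 and 0.64), and 7 rows are lowest in shSCR replicate 3.

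Other genes whose log2(CPM + 1) ran most like the mean z-score of the 10 over the 6 libraries were Plppr1 (r = 0.998), Angpt1 (0.970), Traf3ip1 (0.966), Camkk2 (0.962), Plekhh2 (0.956), Acsl6 (0.950), Ergic1 (0.949) and Fkbp4 (0.947), the 8 highest of 13213 candidates. Angpt1, an angiopoietin, had 6.92, 4.90 and 6.07 CPM in shZdhhc17 and 3.65, 7.64 and 2.73 CPM in shSCR. No gene of the neutrophil lists was among them.

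Genes of immature neutrophils had larger fold changes than the 10. The 13 tested genes of the immature list (granule proteins and regulators made in the marrow) had log2 fold changes from 1.05 to 4.72, all positive, with a median of 2.69. Of the 13, 12 were higher without overlap between the groups, beside 7.48% of all genes tested. None passed over all genes by edgeR (smallest adjusted p = 0.307). In the authors' deposited table, of the 14 listed 4 had a q under 0.05, all higher: Prtn3, Ms4a3, Fcnb and Cd177. Lcn2, the highest in CPM, averaged 1374 ± 79.6 CPM in shZdhhc17, against 665 ± 300 CPM in shSCR (SD, n = 3 per group). It stood at 880 and 322 CPM in shSCR replicates 1 and 3, where Camp of the same list had 0.382 and 0.167 CPM. The part of other cells in the values of Lcn2 was not tested. The lists were chosen with earlier results of these libraries known, so their direction is not independent evidence. The highest log2 fold change among the 10, 0.79 for Fpr1, was below the lowest of the immature list, 1.05 for Lcn2; the difference between the lists was not tested.

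The 18 other genes of mature neutrophils had a median log2 fold change of 0.20, with 13 positive and 5 negative. Of the 18, 2 were higher without overlap, beside 7.48% of all genes tested. On the other side 1 was lower without overlap, beside 9.62% of all genes (Ccrl2, a chemerin-binding receptor, -1.01 ± 0.23; edgeR adjusted p = 0.307). The higher ones were S100a8 (2.18 ± 0.62; edgeR adjusted p = 0.329) and S100a9 (1.80 ± 0.52; edgeR adjusted p = 0.331), values that lie within the range of the immature list. In the authors' deposited table, both S100a9 (higher) and Ccrl2 (lower) had a q under 0.05. Msrb1, the highest in CPM over the 6 libraries together, averaged 195 ± 48.1 CPM in shZdhhc17, against 172 ± 29.7 CPM in shSCR (SD, n = 3 per group). In shZdhhc17 S100a9 was above it, at 244 ± 78.9 CPM, against 69.9 ± 48.7 CPM in shSCR. Msrb1 had 202 CPM in shSCR replicate 1, where S100a8 had 22.7 CPM. The part of other cells in the values of Msrb1 was not tested. The mean log2(CPM + 1) of the 10 genes was 3.94, 3.70 and 3.86 in shZdhhc17 replicates 1, 2 and 3 and 3.51, 3.81 and 3.26 in the shSCR replicates. That of the immature list was 4.21, 3.63 and 5.26 in shZdhhc17 and 1.60, 3.00 and 1.68 in shSCR. That of the 18 other mature genes was 5.06, 5.06 and 5.25 in shZdhhc17 and 4.44, 4.98 and 4.87 in shSCR. The groups overlapped for the 10 genes, and not for the 18 or for the immature list. Control replicate 2 stood above the other controls in all of these lists.

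**Figure D5:**
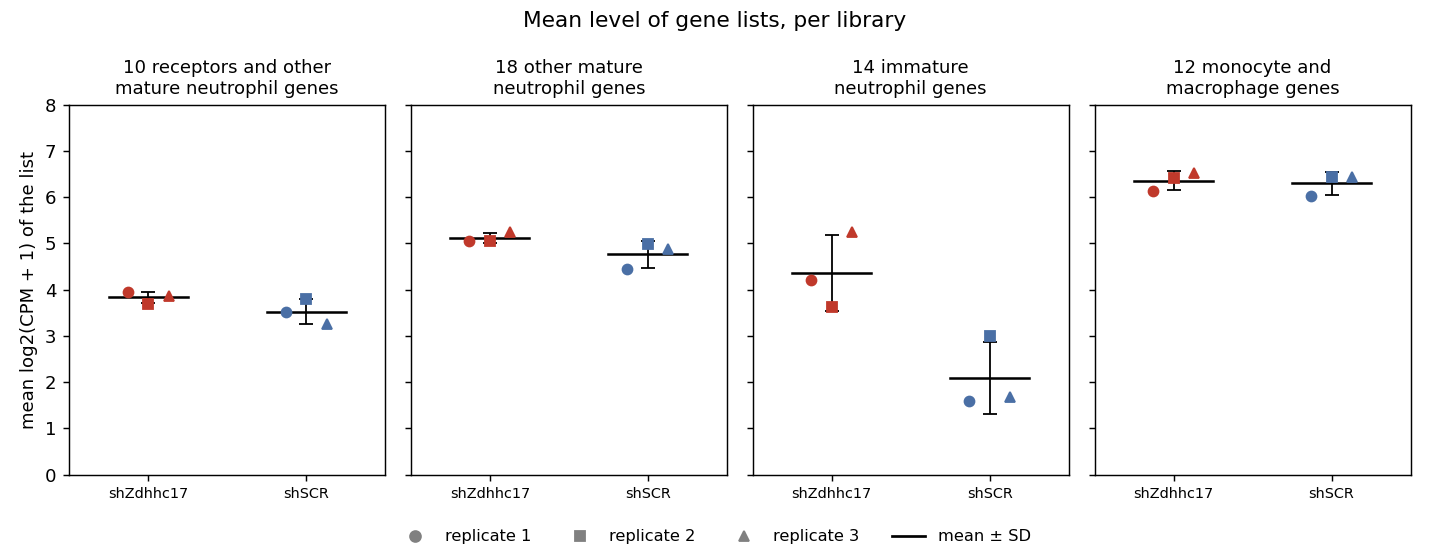
Mean log2(CPM + 1) per library (y axis, from 0) of the 10 genes, of 18 other mature neutrophil genes, of 14 immature neutrophil genes and of 12 monocyte and macrophage genes, in shZdhhc17 (red, left) and shSCR (blue, right), with the mean and SD (n = 3 each). The groups are apart for the immature list (3.63 to 5.26 against 1.60 to 3.00). They are also apart for the 18 other mature genes (5.06 to 5.25 against 4.44 to 4.98). They overlap for the 10 genes and for the monocyte and macrophage genes.

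Monocytes and macrophages also make several of these receptors, among them Clec4d, Clec4e, Trem1 and the formyl peptide receptors. The 12 tested monocyte and macrophage genes had a median log2 fold change of -0.047, with 5 positive and 7 negative. Their summed level was 1716 to 1844 CPM in shZdhhc17 and 1447 to 1777 CPM in shSCR, and Lyz2, the highest in CPM, averaged 540 ± 60.6 CPM in shZdhhc17, against 363 ± 43.6 CPM in shSCR (SD, n = 3 per group). Kupffer cells are the macrophages of the liver, and all 5 of their genes had a positive log2 fold change, with a median of 0.90. Their summed level was 264 to 491 CPM in shZdhhc17 and 99.1 to 329 CPM in shSCR, lowest in shSCR replicate 3, as for 7 of the 10 genes. The part of these cells in the receptor values was not tested.

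Markers of other cells of the tissue were described in the same way, and none passed the threshold by edgeR. All 7 dendritic cell genes had a negative log2 fold change (median -0.95), with Itgax at 18.1 ± 5.66 CPM in shZdhhc17, against 47.9 ± 21.9 CPM in shSCR (SD, n = 3 per group). All 7 T cell genes were negative too (median -1.33), with a summed level of 7.11 to 14.1 CPM in shZdhhc17 and 8.23 to 35.1 CPM in shSCR. All 5 B cell genes were positive (median 0.43) at a summed level of 4.91 to 12.3 CPM in shZdhhc17 and 4.58 to 9.68 CPM in shSCR. Of 11 hepatocyte genes 9 were positive (median 0.37), close to the median of the 10 neutrophil genes, and of 9 mammary carcinoma genes 7 were negative (median -0.51). Endothelial genes had 5 of 7 positive (median 0.089), stromal genes 2 of 8 (median -0.26) and eosinophil genes 2 of 4 tested (median 0.18). The genes highest in CPM of these lists had log2 fold changes of 1.01 ± 0.45 (Cd5l, Kupffer cell), -0.13 ± 0.31 (Ear2, eosinophil), -0.79 ± 0.41 (Cd4, T cell), 0.82 ± 0.47 (Cd79b, B cell) and 0.37 ± 0.46 (Alb, hepatocyte). Those of the other lists had -0.28 ± 0.28 (Krt18, mammary carcinoma), 0.46 ± 0.25 (Stab2, endothelial) and -0.49 ± 0.26 (Col3a1, stromal; SE throughout). In the authors' deposited table, a q under 0.05 was given to Marco, Trf, Epx and Prg2 as higher and to Itgax as lower. The part of tissue makeup in the receptor values was not tested beyond the hepatocyte covariate, under which the median of the 10 was 0.37.

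Ligands of the receptors were tested next to them (16 genes, 10 positive and 6 negative, median 0.28). None passed by edgeR, and in the authors' deposited table Saa3 alone had a q under 0.05. Saa3, a serum amyloid, had 51.7, 40.9 and 72.2 CPM in shZdhhc17 and 11.01, 17.3 and 11.4 CPM in shSCR (log2 fold change 2.05 ± 0.27, SE; edgeR adjusted p = 0.204). Serum amyloid A is a ligand of FPR2 in humans. Pglyrp1, a granule protein that binds Trem1, had 9.37, 6.33 and 14.8 CPM in shZdhhc17 and 2.29, 6.01 and 4.19 CPM in shSCR (1.28 ± 0.42; edgeR adjusted p = 0.378). Camp, whose peptide binds Fpr2, had 12.3, 5.85 and 21.5 CPM in shZdhhc17 and 0.382, 4.39 and 0.167 CPM in shSCR (2.98 ± 1.00; edgeR adjusted p = 0.378). These 3 ligands did not overlap between the groups, and Pglyrp1 and Camp are themselves neutrophil granule genes.

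The 6 ligands with a negative log2 fold change were Csf3, Il1b, Cxcl2, Il1a, Sap130 and Il1rn. Csf3, which encodes G-CSF, had 21.5, 13.1 and 14.2 CPM in shZdhhc17 and 26.8, 18.5 and 31.5 CPM in shSCR (-0.65 ± 0.26; edgeR adjusted p = 0.412), with an overlap of 1 library. Il1b, the cytokine that Il1r2 captures, had 30.6, 39.7 and 41.0 CPM in shZdhhc17 and 50.9, 44.7 and 51.1 CPM in shSCR, without overlap (-0.40 ± 0.15; edgeR adjusted p = 0.405). Il1a, another interleukin 1 gene, averaged 11.3 ± 0.224 CPM in shZdhhc17, against 12.9 ± 1.18 CPM in shSCR, without overlap (-0.19 ± 0.15; edgeR adjusted p = 0.639). The values of Sap130, a ligand of Clec4e, and Il1rn, the interleukin 1 receptor antagonist, were -0.069 ± 0.17 and -0.016 ± 0.24, and both overlapped. Of the 5 listed ligands of Cxcr2, 4 had a positive and 1 a negative value. Ppbp had 5.09, 2.99 and 14.4 CPM in shZdhhc17, against 0.872, 3.29 and 0.223 CPM in shSCR, with an overlap of 1 library (2.34 ± 0.89; edgeR adjusted p = 0.405). Cxcl5 and Cxcl3 had 0.54 ± 0.78 and 0.28 ± 0.34, with overlap. Cxcl2 averaged 3.67 ± 0.589 CPM in shZdhhc17, against 5.01 ± 0.622 CPM in shSCR, without overlap (SD, n = 3 per group; -0.45 ± 0.23; edgeR adjusted p = 0.492). Cxcl1 averaged 101 ± 30.4 CPM in shZdhhc17, against 67.6 ± 30.7 CPM in shSCR, with overlap (0.58 ± 0.38; edgeR adjusted p = 0.573).

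The 20 adaptor and signalling genes split evenly, 10 above 0 and 10 below it (median log2 fold change -0.041). In the authors' deposited table Jak2 alone had a q under 0.05. Jak2, a kinase that acts below cytokine receptors such as that for G-CSF, had 85.5, 88.3 and 96.9 CPM in shZdhhc17 and 138, 144 and 166 CPM in shSCR. All controls lay above all shZdhhc17 libraries (-0.73 ± 0.13; edgeR adjusted p = 0.307). Malt1, which acts below Clec4e and Clec4d with Card9 and Bcl10, averaged 23.1 ± 1.33 CPM in shZdhhc17, against 27.8 ± 1.04 CPM in shSCR, without overlap (SD, n = 3 per group; -0.27 ± 0.12; edgeR adjusted p = 0.455). These genes are made by many cells of the tissue. Tyrobp, the DAP12 adaptor of Trem1, averaged 68.4 ± 5.72 CPM in shZdhhc17, against 58.6 ± 7.97 CPM in shSCR. Fcer1g, the Fc receptor gamma chain, averaged 52.9 ± 2.13 CPM in shZdhhc17, against 67.8 ± 18.5 CPM in shSCR. Both overlapped between the groups.

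Related receptors split in the same way, with 9 positive and 8 negative among 17 tested and a median of 0.16. Cxcr4, which holds neutrophils in the marrow, had 10.3, 13.9 and 13.5 CPM in shZdhhc17 and 17.6, 20.4 and 20.5 CPM in shSCR, without overlap (-0.64 ± 0.17; edgeR adjusted p = 0.313). Trem3, next to Trem1, had 2.39, 2.03 and 4.62 CPM in shZdhhc17 and 1.09, 1.73 and 0.949 CPM in shSCR, also without overlap (1.25 ± 0.42; edgeR adjusted p = 0.378). Il18r1, a receptor chain for interleukin 18, averaged 7.27 ± 3.19 CPM in shZdhhc17, against 4.35 ± 0.634 CPM in shSCR (0.74 ± 0.33; edgeR adjusted p = 0.446). Cxcr1, the neighbour of Cxcr2, was too low to be tested, at 0.252 to 0.597 CPM in shZdhhc17 and 0.109 to 0.261 CPM in shSCR.

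In the Myc and Max network, 4 of 12 genes had a positive value (median -0.12). Mycn averaged 3.52 ± 0.316 CPM in shZdhhc17, against 1.65 ± 0.378 CPM in shSCR, without overlap (1.10 ± 0.27; edgeR adjusted p = 0.307). Mxi1, a relative of Mxd1, averaged 51.5 ± 6.77 CPM in shZdhhc17, against 70.1 ± 5.59 CPM in shSCR (-0.44 ± 0.14; edgeR adjusted p = 0.364). Max, the shared partner, averaged 62.1 ± 2.68 CPM in shZdhhc17, against 76.0 ± 12.1 CPM in shSCR (-0.29 ± 0.14; edgeR adjusted p = 0.474). Neither overlapped between the groups. Of the histamine genes 4 of 7 were tested, with 2 positive and 2 negative and none without overlap. Hnmt, which degrades histamine, had 0.59 ± 0.37, the diamine oxidase gene Aoc1 -0.81 ± 0.51, and the receptor gene Hrh1 0.38 ± 0.34 (log2 fold change ± SE; edgeR adjusted p = 0.558, 0.556 and 0.687).

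In the authors' deposited enrichment table, Cxcr2, Fpr1 and Fpr2 stood in the leading edge of the Reactome set of neutrophil degranulation (462 genes, normalized enrichment score 2.04, q = 2.69e-10) and of the Reactome innate immune system set (962 genes, 1.84, q = 2.69e-10). Fpr1 also stood in that of a human complement set (q = 0.0141). The other 7 genes were in the leading edge of no deposited set with a q under 0.05. Whether they belong to these sets at all was not examined. Leading edges come from the same comparison of these libraries, so they are not independent evidence.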

How the data were processed

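RNA of dissected metastases went into a stranded kit for polyadenylated RNA, per the labels' protocols. Per the submitters' processing notes, the tools were STAR 2.6.1, FastQC 0.11.8, DESeq2 1.34.0 and HTSeq. The build was GRCm39. Whether reads were counted by strand is not stated in these sources. The authors deposited whole-number raw counts per gene, without normalization. They also deposited a table with DESeq2 log2 fold changes, p-values and q-values, and a gene set table with normalized enrichment scores, per the file headers.

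Groups came from the sample titles. Counts were tested with edgeR 4.0.16 (glmQLFit, robust, and glmQLFTest, two-sided; TMM; filterByExpr) over 15567 genes, with Benjamini-Hochberg adjustment and a threshold of 0.05. SEs come from the fold change and its F statistic. DESeq2 1.42.0 and limma 3.58.1 (voom) ran under R 4.3.3 as alternatives. The code was checked on simulated counts with 200 changed genes. There edgeR recovered 38% of the 2-fold and 86% of the 4-fold changes, DESeq2 56% and 88%, and limma voom 31% and 86%. Unchanged genes were also called, 15 by edgeR, 45 by DESeq2 and 9 by limma voom. Among the 10 genes the largest edgeR log2 fold change, 0.79 for Fpr1, was below 2-fold. Their lack of calls therefore does not exclude changes of that size. Total counts ran from 15832837 to 19186615, and counting noise weighs most on Fpr1.

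Of 209 listed genes, 5 had no match by symbol and were not analysed here. The genes, the lists and the tests were chosen with earlier results of these data known. Named genes are the 10, Zdhhc17, the 3 of smallest p in each list of partners, the highest in CPM of each cell type list, and the 8 most alike; S100a8, S100a9, Ly6g, Ccrl2, Csf3, Il1b, Il1a, Il1rn, Sap130, Cxcl1, Cxcl2, Cxcl3, Cxcl5, Ppbp, Tyrobp, Fcer1g, Cxcr1, Cpa3, Mcpt4, Mcpt8, those given with the authors' q and the denominator Myc were named after their values were seen.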

Additional observations from a re-analysis of the deposited data

How the results depend on the processing

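The 10 genes were followed under 14 alternatives (giving 140 values). Of these, 131 kept their sign and stayed short of the threshold, 9 changed sign, and none passed. Csf3r, at -0.0076, changed sign with DESeq2 size factors (0.0024), no filter on low counts (0.00093), DESeq2 (0.0046) and limma voom (0.022). Without a single library it ran from -0.16 to 0.27, Il1r2 from -0.21 to 0.83 and Hdc from -0.040 to 0.37. With 1 library left out, the median of the 10 was lowest at 0.16 (without shZdhhc17 replicate 1) and highest at 0.49, against 0.38 with all libraries. Over all genes DESeq2 called 204, edgeR without a filter 3, and edgeR without a single library 0 to 1 (1 without shSCR replicate 3), against 0 by edgeR as reported. With library totals alone the median of all genes moved to -0.13 and that of the 10 to 0.28, 0.41 above it, and 0 of the 10 had groups that did not overlap, against 2 with TMM. Without a single library that count ran from 2 to 4 (4 without shZdhhc17 replicate 3, of which 3 were higher and 1 lower). Smaller groups overlap less readily, and the share of all genes was not counted in these settings. The counts are therefore not comparable with that of all libraries. The replicate number as a block gave 0.021 for Csf3r, the last change of sign, 0.36 for the median of the 10 and 0 calls. Same-numbered libraries correlated at -0.059, 0.32 and -0.046 in their deviations from the group means, and 2 of 6 libraries were most like their own number. These values show no pairing by number, but with 3 libraries a group they cannot exclude one. With 3 libraries a group, the precision is that of the intervals given.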
